A study of Mus musculus with 40 samples.

Results

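Transcripts of 12 bacterial genes of glutamate, alanine and pyruvate metabolism were followed in the cecal contents of mice fed a Western-type diet with increasing amounts of broccoli powder. The 12 genes are all rows of 5 bacterial count tables whose symbol, once a numeric copy suffix is removed, is gdhA, gdhB, ald, nifJ, ppdK or pycB. They are 12 of the 16742 features in those tables. The 6 symbols were selected on measured values from these same libraries, so the fold changes and adjusted p-values given for them describe the data and are not independent evidence. X. muris holds gdhA, ald, nifJ and ppdK. D. muris holds gdhA, gdhB, ald and 2 copies of ppdK, listed as ppdK_1 and ppdK_2. Acetatifactor, F. rodentium and L.bacterium335 hold 1 ppdK each, and pycB, a name for a subunit of pyruvate carboxylase, labels no row. The bacteria are named as in the deposited tables.

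These enzymes sit where amino acid and central carbon metabolism meet. Glutamate dehydrogenase, the product of gdhA or gdhB, interconverts glutamate with 2-oxoglutarate and ammonia, and alanine dehydrogenase, the product of ald, interconverts alanine with pyruvate and ammonia. NifJ, pyruvate:ferredoxin (flavodoxin) oxidoreductase, turns pyruvate into acetyl-CoA and passes the electrons to ferredoxin or flavodoxin, a reaction of many anaerobes. PpdK, pyruvate phosphate dikinase, interconverts pyruvate and phosphoenolpyruvate and so can work in the direction of glycolysis or of gluconeogenesis. Anaerobic gut bacteria draw on such reactions when they ferment sugars and amino acids.

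The mice were C57BL/6, 3 weeks old at the start, and all ate the Total Western Diet for 6 weeks. For 3 further weeks powdered broccoli made up 0% (the control), 0.5%, 1% and finally 2.5% of that diet in the 4 groups. Each diet has 10 libraries, 40 in all, made from RNA of cecal contents after ribosomal RNA depletion. The labels do not state which libraries come from separate animals or cages, so p-values measure the spread between these libraries, which may be partly technical.

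The depth on a genome varied widely between libraries, also within a diet. Counts on X. muris at 2.5% ran from 2435 to 289859 per library. Total counts over all 6 deposited tables ran from 236483 to 5107249 per library. A library entered the analysis of a bacterium with at least 10000 counts on its genome. That left 10 libraries per diet for Acetatifactor and L.bacterium335. It left 9, 9, 10 and 9 at 0, 0.5, 1 and 2.5% for D. muris, 10, 10, 10 and 8 for F. rodentium, and 7, 7, 10 and 9 for X. muris. Median counts on X. muris were 15999 at 0% and 120030.0 at 2.5%, and a median of 451 and 1972 of its features had any count. The most counted feature of X. muris held a median of 87.3% of its counts at 0% and 49.6% at 2.5%. Library 2.5% replicate 9 had too few counts for D. muris, F. rodentium and X. muris, and it had 0 counts of all 4 genes in X. muris. Levels below are counts per 1000000 counts on the tested features of the same genome, with library sizes rescaled by TMM factors (CPM). Because RNA was measured in bulk, fewer cells of a bacterium and less RNA per cell cannot be told apart. A CPM value is relative to the other counted RNA of the same bacterium, and after TMM scaling it is not a plain share of it.

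All 12 genes passed the low-count filter and were tested. With no count at 0%, ppdK of L.bacterium335 passed it only through the broccoli groups, where it is high. Its calls as higher, at each dose and on the slope, are therefore not separate support. How many other features of that genome passed in the same way was not counted. At 2.5% against 0%, 5 of the 12 were called higher and none lower (edgeR quasi-likelihood test, Benjamini-Hochberg adjusted p under 0.05 over all tested features of a genome, two-sided). The 5 were gdhA, nifJ and ppdK of X. muris, ppdK of Acetatifactor and ppdK of L.bacterium335. The share of all tested features called higher in that comparison was 9.55% in X. muris, 54.5% in Acetatifactor, 77.8% in L.bacterium335, 3.88% in D. muris and 5.39% in F. rodentium. So ppdK of Acetatifactor and of L.bacterium335 moved as most features of their genomes did. At 1%, 3 of 12 were called higher, the ppdK genes of Acetatifactor, L.bacterium335 and X. muris. The background there was 49.5%, 78.4% and 5.37%, with 2.53% in D. muris and 0.474% in F. rodentium. At 0.5% the 1 gene called was ppdK of L.bacterium335, against 79.4% of its features, 21.6% in Acetatifactor, 1.81% in D. muris, 3.55% in F. rodentium and 0% in X. muris. No gene was called lower at any dose.

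**Figure D1:**
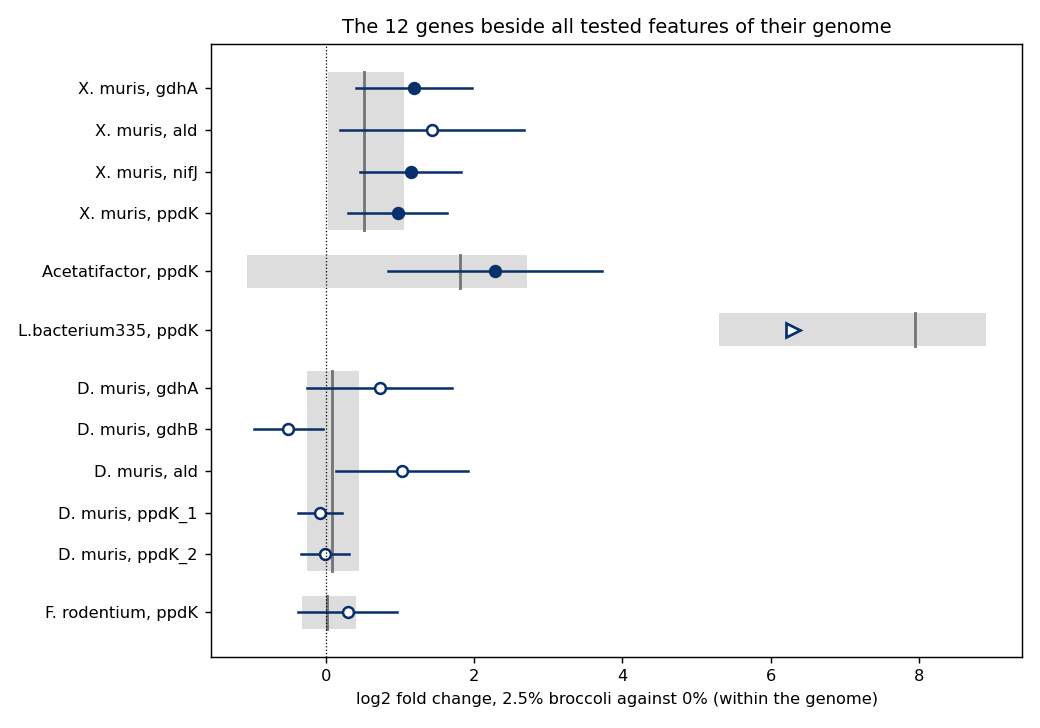
Log2 fold change at 2.5% against 0% broccoli for each of the 12 genes, with its 95% interval from edgeR; filled points have an adjusted p under 0.05. Grey bands span the middle quartiles of all tested features of the genome and the grey line is their median; the open triangle of L.bacterium335 is a lower bound of 79.02-fold, since no count was seen at 0%.

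In X. muris all 4 genes had higher medians at 2.5% than at 0%, and 3 of them passed the test. The median log2 fold change over its 670 tested features was itself 0.51, and each value below is to be read beside it. The glutamate dehydrogenase gene gdhA lay between 130 and 1007 CPM at 0%, with a median of 333. These values rest on 67 counts in the fitted 0% libraries, 46 of them in replicate 7. Over all 10 libraries at 0% the median was 2 counts, so most of these CPM values are imprecise. The gene gdhA changed as follows with broccoli. It lay between 0 and 1155 at 0.5% (median 232), between 502 and 1002 at 1% (median 764), and between 888 and 1413 at 2.5% (median 1170.0). The 2 highest 0% libraries, replicates 1 and 7, reached 1007 and 838, and only the first of them overlapped the 2.5% group. The log2 fold change was 0.07 ± 0.44 (SE) at 0.5%, 0.68 ± 0.40 at 1% and 1.19 ± 0.40 at 2.5% (edgeR adjusted p = 0.976, 0.359 and 0.0341), with 9 of 9 libraries at 2.5% above the 0% mean. It also rose along the dose, by 0.49 ± 0.14 log2 units per percent of broccoli (edgeR adjusted p = 0.0110).

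The alanine dehydrogenase gene ald of X. muris was close to the detection limit without broccoli. Of the 7 libraries at 0%, 4 had no count and the others reached 101, 155 and 164 CPM, which came from 1, 2 and 9 counts. The range was 0 to 218 CPM at 0.5% (median 72.2), 0 to 495 at 1% (median 154) and 168 to 456 at 2.5% (median 248). The 0% and 2.5% groups did not overlap. How many of the 670 tested features of X. muris were separated in this way was not counted. Of them, 509 had a positive log2 fold change at 2.5%. The separation is therefore not read as particular to ald. The fold change at 2.5% was 1.43 ± 0.63 on the log2 scale and did not pass the test (edgeR adjusted p = 0.140), while the slope on dose did (0.57 ± 0.19 per percent, edgeR adjusted p = 0.0453). That slope call was kept in 10 of the 33 fits that left out 1 library, those without 0% replicate 7, 0.5% replicate 6, 1% replicate 1, 2, 4, 5, 6 or 7, or 2.5% replicate 3 or 10 (edgeR adjusted p up to 0.113 in the others). DESeq2 called ald at 2.5% (1.86, DESeq2 adjusted p = 0.0138), beside a median of 0.65 over all features it fitted.

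The nifJ gene, found under that symbol only in X. muris among the 5 tables, had the smallest adjusted p of the 4 at 2.5% against 0%. It lay between 391 and 3162 CPM at 0% (median 1397), 1543 and 3407 at 0.5% (median 2059), 975 and 3907 at 1% (median 3016), and 2074 and 4552 at 2.5% (median 3516). The 0% group was spread widely: replicates 6 and 7, at 3162 and 2567, overlapped the 2.5% group and the remaining 5 lay at 1501 or below. The log2 fold change was 0.59 ± 0.37 at 0.5%, 0.89 ± 0.34 at 1% and 1.14 ± 0.35 at 2.5% (edgeR adjusted p = 0.499, 0.109 and 0.0183). The slope was 0.37 ± 0.13 per percent (edgeR adjusted p = 0.0586).

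The ppdK gene of X. muris had similar medians at the 3 doses of broccoli and a lower one without it. It lay between 904 and 2349 CPM at 0% (median 1511). At 0.5% 1 library, replicate 5, stood at 187 CPM from 1 count, and the other 6 lay between 2304 and 3739 (group median 3133). The ranges were 2446 to 4425 at 1% (median 3323) and 2665 to 3992 at 2.5% (median 3224), and neither overlapped the 0% group. Such separation was not counted over all tested features of the genome, so it is not read as particular to ppdK. Against 0% the log2 fold change was 0.77 ± 0.36 at 0.5%, 1.03 ± 0.34 at 1% and 0.97 ± 0.34 at 2.5% (edgeR adjusted p = 0.342, 0.0417 and 0.0466). The slope on dose was 0.25 ± 0.13 per percent and was not called (edgeR adjusted p = 0.305). Between 0.5% and 2.5% ppdK differed by 0.19, with an interval from -0.44 to 0.82, whereas gdhA differed by 1.12 (0.41 to 1.83) and ald by 1.61 (0.49 to 2.74). None of these 3 passed (edgeR adjusted p = 0.892, 0.0513 and 0.0797).

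**Figure D2:**
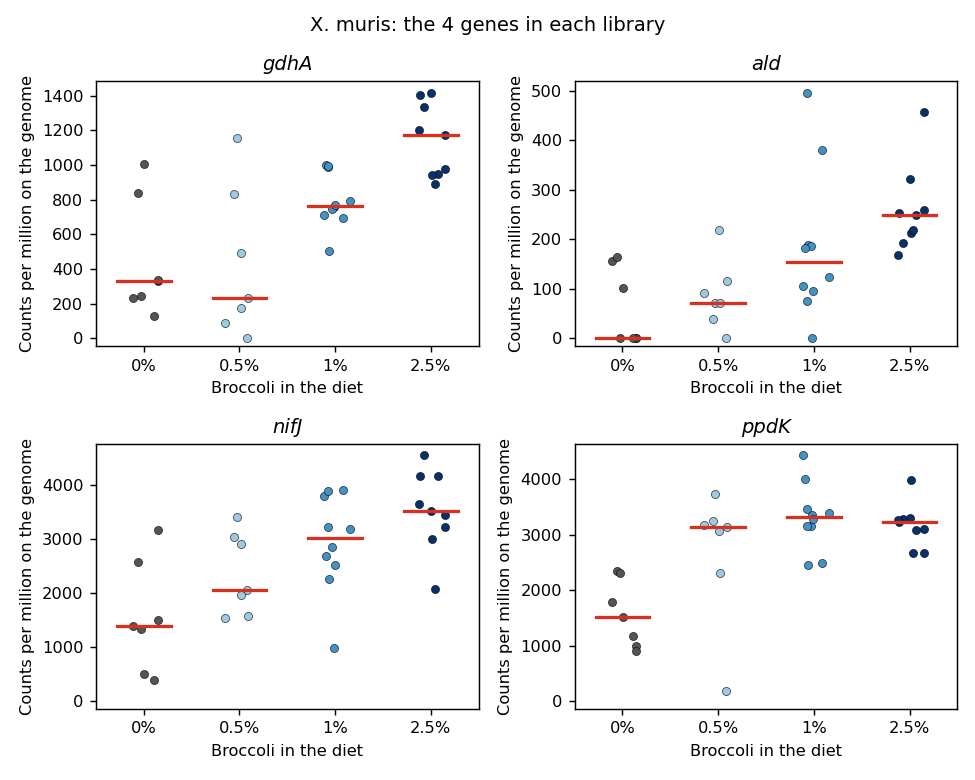
Level of the 4 genes of X. muris in each library, in CPM on the genome, by percent of broccoli in the diet; each point is a library and each red line the median. At 2.5% all 9 libraries of ppdK lie above the highest 0% library, 2349, and for ald above 164. The share of all tested features separated in this way was not counted, so the separation is not read as particular to these genes.

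The calls in X. muris depend on the scaling and on single libraries. With RLE factors in place of TMM the changes at 2.5% were 0.94 for gdhA, 0.82 for nifJ and 0.63 for ppdK, and with the library's total on the genome as a covariate 0.68, 0.48 and 0.52, none of them called (edgeR adjusted p from 0.114 to 0.699). With no factors they were larger, 2.40, 2.58 and 2.29, and all called, as was ald at 2.67 (edgeR adjusted p = 0.00284 for ald and lower for the others), while the median of all tested features was 1.85. That median was 0.25 with RLE factors and 0.20 with the covariate. The nifJ call was lost without 0% replicate 1, 3 or 9 or without 2.5% replicate 4 (values 0.94 to 1.33 over all 33 omissions). The gdhA call was lost without 0% replicate 2, 3, 6, 8 or 9, 0.5% replicate 2, 1% replicate 8, or 2.5% replicate 4, 5, 7 or 8. The ppdK call at 2.5% was kept only without 0% replicate 7 or 8, 0.5% replicate 5, 6 or 8, or 1% replicate 1, 2, 5, 7 or 10. It was also lost without libraries 76 to 81 and with no library minimum (edgeR adjusted p = 0.0517 and 0.203). The ppdK call at 1% was lost in 18 of 33 omissions: 0% replicate 1, 2, 3, 6 or 9, 0.5% replicate 3, 1% replicate 3, 4, 5, 6, 8 or 9, and 2.5% replicate 1, 2, 4, 7, 8 or 10 (edgeR adjusted p up to 0.105). DESeq2 called gdhA, nifJ and ppdK at 2.5% with larger changes of 1.73, 1.67 and 1.49, beside a median of 0.65 over all features it fitted. The share of features that DESeq2 called was not counted. Each of the 4 genes also followed the depth on the genome, with Spearman's rho between CPM and total count of 0.45 for ald, 0.59 for gdhA, 0.68 for nifJ and 0.51 for ppdK over 33 libraries. The part of depth in these changes was not tested beyond the covariate.

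Ratios between the X. muris genes were also taken, from counts pooled within a diet. Counts of nifJ per count of ppdK, uncorrected for length, were 1.03 at 0%, 0.896 at 0.5%, 0.940 at 1% and 1.11 at 2.5%. For gdhA per count of ppdK the ratios were 0.321, 0.230, 0.238 and 0.362. In single libraries this second ratio ran from 0.105 to 0.667 at 0% and from 0 to 0.309 at 0.5%. It ran from 0.161 to 0.316 at 1% and from 0.236 to 0.436 at 2.5%. Of the pooled 0% counts, replicate 7 held 46 of 67 for gdhA, 129 of 209 for ppdK and 141 of 215 for nifJ. Single 0% libraries ranged from 0.333 to 3.5 for the first ratio, where 6 of 7 held at most 28 counts of either gene, and 2.5% libraries from 0.751 to 1.38.

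In D. muris none of the 5 genes was called in any comparison. At 2.5% against 0% 2 of them, ald and gdhB, had an unadjusted p under 0.05, as did 240 of all 1108 tested features. DESeq2 called none of the 5 there either. The glutamate dehydrogenase gene gdhB lay between 2947 and 5810 CPM at 0% (median 4708), 1799 and 6739 at 0.5% (median 3320), 2271 and 8304 at 1% (median 4140), and 1828 and 4017 at 2.5% (median 2913). The groups overlapped, although 0 of 9 libraries at 2.5% exceeded the 0% mean of 4333. The log2 difference was -0.51 ± 0.23 (edgeR adjusted p = 0.170, unadjusted p = 0.0323). The other glutamate dehydrogenase gene, gdhA, had medians of 177, 436, 233 and 500 CPM at 0, 0.5, 1 and 2.5%, with ranges of 53.3 to 1113, 94.4 to 843, 35.6 to 858 and 153 to 969. Its difference at 2.5% was 0.72 ± 0.48 (edgeR adjusted p = 0.403), and 1.42 without 0% replicate 4, the library at 1113 CPM (lowest edgeR adjusted p over all omissions, 0.0617).

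Across libraries the D. muris genes gdhA and gdhB moved in opposite directions. Over 37 libraries Pearson's r between their log2(CPM + 1) values was -0.68 and Spearman's rho -0.69. Both permutation p-values were 1e-05, the smallest that 100000 resamples can give (adjusted p = 0.00016 over 16 pairs of genes within D. muris and X. muris). Without the 2 libraries farthest from the median of gdhA, r was -0.61. Within each diet rho was -0.58 at 0%, -0.70 at 0.5%, -0.61 at 1% and -0.58 at 2.5%, so the relation held within every group. It was -0.69 without the 6 libraries numbered 76 to 81, which are numbered apart from the others. The pooled ratio of gdhA to gdhB counts was 0.0778, 0.154, 0.0670 and 0.170 at the 4 doses in ascending order. This relation was looked at after the values had been seen.

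**Figure D3:**
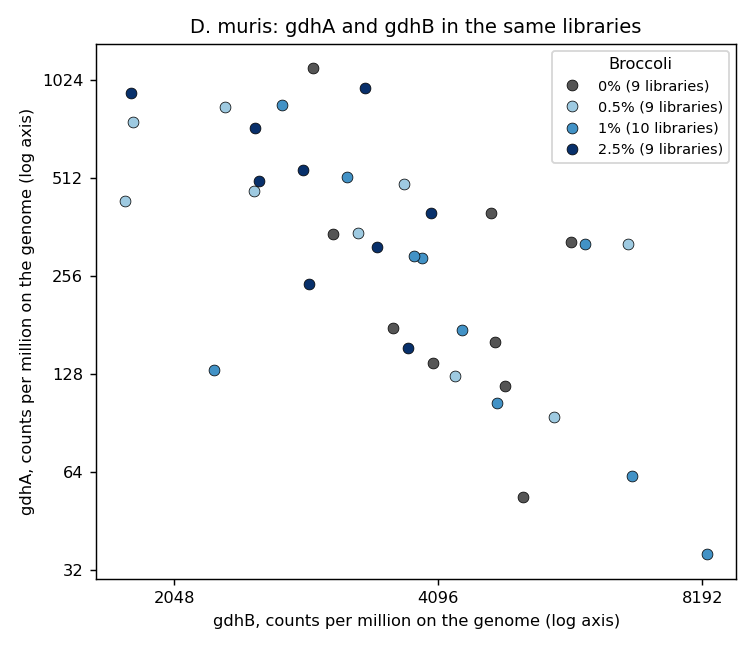
Level of gdhA against gdhB of D. muris in the same library, in CPM on the genome on log axes, with points shaded by diet (37 libraries). Libraries high in gdhB, up to 8304, are low in gdhA, down to 35.6, and rho is negative within each diet.

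The alanine dehydrogenase gene ald of D. muris was low at every dose, with medians of 160, 209, 327 and 352 CPM. It reached 480 CPM at most without broccoli and 714 at 2.5%, where 9 of 9 libraries exceeded the 0% mean. The difference of 1.02 ± 0.44 did not pass (edgeR adjusted p = 0.146, unadjusted p = 0.0259), and it rested on 39 counts in all at 0% and 363 at 2.5%. The 2 copies of ppdK had similar medians at all doses. The values were 2965, 3161, 3826 and 3267 CPM for ppdK_1 and 4424, 4016, 4739 and 4321 for ppdK_2. At 2.5% ppdK_1 differed from 0% by -0.08 with an interval from -0.38 to 0.22, and ppdK_2 by -0.01 with an interval from -0.33 to 0.31. The handling of reads common to both copies, a step not given in the sources used here, leaves their separate values uncertain. The levels of the copies varied together across libraries (Pearson's r = 0.47, Spearman's rho = 0.47, permutation adjusted p = 0.00997 and 0.00955; r = 0.37 without the 2 farthest libraries), and within diets rho ran from 0.22 to 0.77.

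The pyruvate phosphate dikinase gene is the one member found in all 5 bacteria. Its change with broccoli differed in 4 of 10 pairs of bacteria, with no allowance for the shift of each whole genome. All but the pair of D. muris and X. muris involve L.bacterium335. Its ppdK had no count at 0% and passed the low-count filter only through the broccoli groups, so those pairs are not separate support. In F. rodentium ppdK was abundant throughout, between 1697 and 10886 CPM at 0% (median 7251), 4885 and 14052 at 0.5% (median 10021), 1147 and 16400 at 1% (median 7396) and 4409 and 12482 at 2.5% (median 8998). The groups overlapped at every dose, and the 2.5% difference was 0.30 with an interval from -0.37 to 0.96 (edgeR adjusted p = 0.629). In Acetatifactor it ran from 0 to 1868 CPM at 0% (median 230), with 3 of 10 libraries at 0, and from 0 to 2603 at 0.5% (median 1089), again with 3 at 0. At 1% it ran from 932 to 3679 (median 2062) and at 2.5% from 0 to 3723 (median 2281), the 0 being replicate 8 and the next lowest library 1123. The log2 differences were 1.32 ± 0.71, 2.17 ± 0.72 and 2.28 ± 0.72 at the rising doses (edgeR adjusted p = 0.155, 0.00956 and 0.00500), beside medians over all 773 tested features of 0.95, 1.58 and 1.81. Without 0% replicate 8 the 2.5% value was 2.92, and with the library's total on the genome as a covariate it was 1.06 and not called (edgeR adjusted p = 0.397).

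In L.bacterium335 not 1 count of ppdK was seen in the 10 libraries without broccoli. The range was 55.1 to 309 CPM at 0.5% (median 140), 21.9 to 374 at 1% (median 247) and 0 to 646 at 2.5% (median 216). Every library at 0.5% and 1% had at least 1 count, and at 2.5% only replicate 9 had none. With a floor of 3 counts summed over the 0% libraries, ppdK was at least 41.2-fold higher at 0.5%, at least 66.5-fold at 1% and at least 79.02-fold at 2.5%. These bounds cover counting error only. By edgeR the median log2 fold change over all 1384 tested features of that genome was 7.60, 7.68 and 7.94 at these doses. The bounds therefore do not set ppdK apart from its genome. In that genome the 5 most counted features held a median of 76.8% of counts at 0% and 18.1% at 2.5%, and a median of 624 and 3545 of its features had any count. Between 0.5% and 2.5% the difference of 0.67 had an interval from -0.47 to 1.81 (edgeR adjusted p = 0.615).

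**Figure D4:**
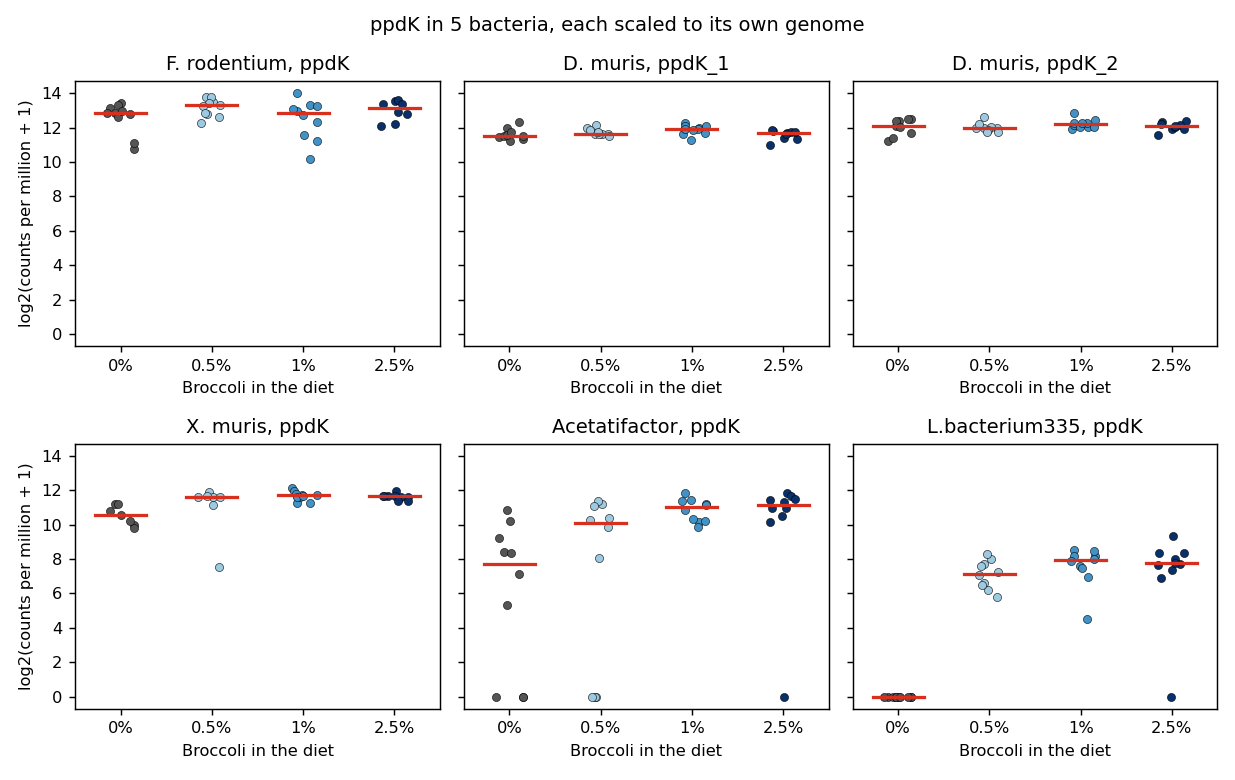
Level of ppdK in 5 bacteria as log2(CPM on the own genome + 1) by percent of broccoli; each point is a library and red lines are medians. The medians of F. rodentium and D. muris lie close together across diets, those of X. muris and Acetatifactor are higher with broccoli, and all 10 libraries of L.bacterium335 at 0% lie at 0.

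For the same symbol, changes between 0% and 2.5% were compared between bacteria within the same libraries, in 12 pairs with copies summed on the log2(CPM + 1) scale, and 4 pairs differed. The ppdK change of X. muris exceeded that of D. muris by 1.07, with D. muris moving by 0.02 and X. muris by 1.09 (exact permutation test, two-sided, adjusted p = 0.00105). The comparison did not take out the shift of a whole genome. At 2.5% the median log2 fold change over all tested features was 0.51 in X. muris and 0.08 in D. muris (edgeR). How often other features differ between these genomes was not tested. The ppdK change of L.bacterium335 exceeded those of D. muris, F. rodentium and X. muris by 7.96, 7.49 and 6.85 (exact permutation adjusted p = 0.000274, 0.000274 and 0.000699), sizes that rest on its 0 counts at 0% and on the pseudocount of 1. In each of these pairs the groups separated completely, and the unadjusted p was the smallest the exact test can give. The median log2 fold change over all tested features of L.bacterium335 was itself 7.94 (edgeR), beside 0.01 in F. rodentium. These pairs therefore do not set ppdK apart from the rest of L.bacterium335. Since its ppdK passed the low-count filter only through the broccoli groups, they are also not separate support. The excess of X. muris over F. rodentium, 0.86, did not pass (exact permutation adjusted p = 0.0671). Neither did D. muris against F. rodentium (-0.46, exact permutation adjusted p = 0.313) or the 4 pairs with Acetatifactor (permutation adjusted p from 0.0925 to 0.428), whose within-library differences had SDs of 3.39 to 4.48 at 0%. Of these 4, the pairs with D. muris and with F. rodentium did pass with a pseudocount of 10 and with RLE factors (permutation adjusted p from 0.0224 to 0.0463). The pair of X. muris and F. rodentium passed with a pseudocount of 10 but not with RLE factors (exact permutation adjusted p = 0.0480 and 0.386). D. muris and X. muris were not shown to differ for gdhA (difference -0.33, exact permutation adjusted p = 0.663) or ald (-2.76, adjusted p = 0.248).

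Along the dose, 4 of the 12 genes were called as rising: gdhA and ald of X. muris and ppdK of Acetatifactor and of L.bacterium335. The background for a rising slope was 4.63% in X. muris, 41.5% in Acetatifactor, 33.7% in L.bacterium335, 2.26% in D. muris and 3.37% in F. rodentium. The slope of ppdK was 0.74 ± 0.29 per percent in Acetatifactor and 1.06 ± 0.41 in L.bacterium335 (edgeR adjusted p = 0.0278 and 0.0372). The first was lost in 22 of 40 omissions of 1 library, namely 0% replicate 1, 5, 6 or 7, replicate 1, 3, 5, 6 or 7 at 0.5% and at 1%, and any of 2.5% replicates 1 to 7 or 9 (edgeR adjusted p up to 0.0790), and the second without 2.5% replicate 8 (0.0611). Between 0.5% and 2.5% edgeR called 0 of the 12 genes and DESeq2 called 2. In edgeR 2 had an unadjusted p under 0.05 (gdhA and ald of X. muris), as did 85 of all 670 tested features of X. muris. All features called higher there made up 1.04% in X. muris, 1.42% in Acetatifactor, 0.723% in L.bacterium335, 0.0903% in D. muris and 1.42% in F. rodentium.

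The ppdK counts of the 5 tables were also split by bacterium in each library, which follows the amount of a bacterium's RNA as well as its transcription. Alistipes, with 910 further ppdK counts at 2.5%, is not in these shares. F. rodentium supplied a median of 96.5% of the ppdK counts of the 5 tables at 0%, 93.8% at 0.5%, 69.9% at 1% and 24.9% at 2.5%. At 2.5% the medians of the others were 22.0% for D. muris, 16.0% for X. muris, 14.9% for Acetatifactor and 6.01% for L.bacterium335. F. rodentium was the largest source in 9, 10, 6 and 4 of 10 libraries at the rising doses. Per 1000000 counts over all 6 tables, the summed ppdK of the 5 bacteria had medians of 6350, 7047, 4779 and 2789.8, and F. rodentium alone 6098, 6264, 3553 and 549.9.

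**Figure D5:**
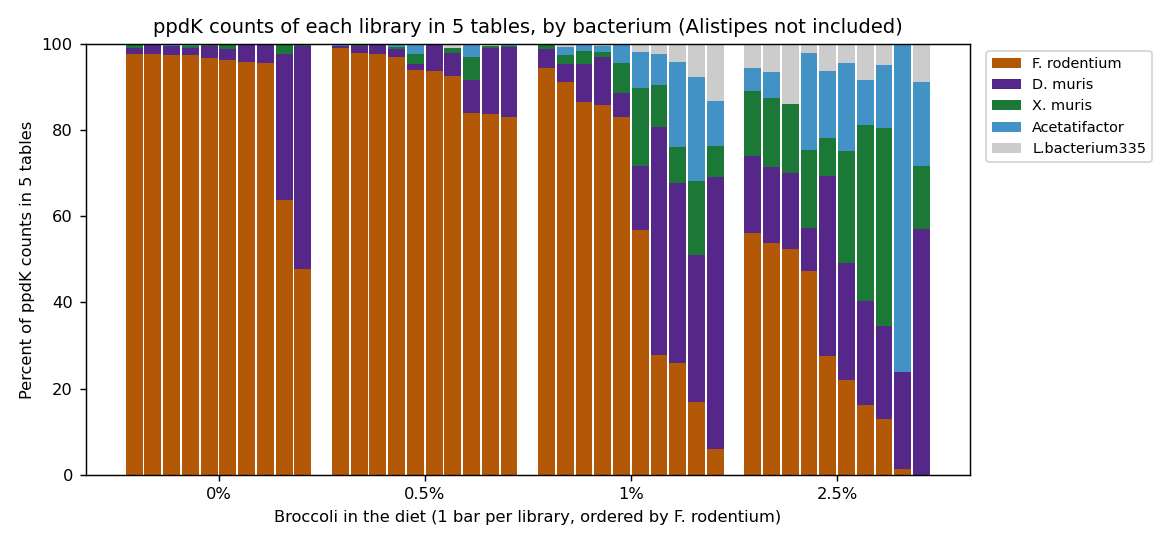
Percent of the ppdK counts in the 5 tables contributed by each bacterium in each library, 1 bar per library, grouped by percent of broccoli and ordered by F. rodentium. F. rodentium fills between 47.7% and 97.6% of the bars at 0%, and between 0% and 56.2% at 2.5%.

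On the same scale the 4 genes of X. muris had their lowest medians at 0% or 0.5% and their highest at 2.5%. Medians at 0, 0.5, 1 and 2.5% were 16.7, 18.5, 228 and 569.7 for nifJ, 16.95, 23.7, 196 and 485 for ppdK, 2.91, 2.52, 49.6 and 188 for gdhA, and 0, 1.03, 12.1 and 41.3 for ald. Summed over D. muris and X. muris, gdhA had medians of 11.7, 26.96, 77.9 and 231 on this scale. In libraries with any gdhA count in those 2 bacteria, X. muris supplied a median of 28.6% of their sum at 0% and 81.2% at 2.5%. Of their ald counts it supplied a median of 0% and 64.6%. With library sizes taken over all 6 tables, edgeR called 10 of the 12 genes higher at 2.5% and 1, ppdK of F. rodentium, lower (-2.35, edgeR adjusted p = 5.32e-05). Under that scaling 99% of all tested features of X. muris were called higher, 74.1% in D. muris, 62.9% in Acetatifactor and 80.4% in L.bacterium335, and 89% in F. rodentium were called lower, so the members called moved as most features of their genomes did. The median of all tested features was 4.10 in X. muris, 1.51 in D. muris, 4.25 in Acetatifactor, 9.36 in L.bacterium335 and -2.25 in F. rodentium.

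Related genes were counted from 4 lists of symbols, also chosen with results of these data known. The counts stand beside 54.5% of all tested features called higher and 22.5% called lower at 2.5% in Acetatifactor, 77.8% called higher in L.bacterium335 and 6.68% called lower in D. muris. In the list of glutamate and ammonia assimilation, both tested genes of Acetatifactor were higher at 2.5%, namely the glutamine synthetase genes glnA_4 (4.01 ± 0.84, edgeR adjusted p = 0.000103) and glnA_1 (2.50 ± 0.85, 0.00814). All 4 of L.bacterium335 were higher, led by gltD, a glutamate synthase subunit, which had 0 counts at 0% and 1125 at 2.5%. Of 10 in D. muris 1 was lower, the histidine breakdown gene hutI (-0.78 ± 0.26, edgeR adjusted p = 0.0400), and 0 of 10 in F. rodentium and 0 of 1 in X. muris were called. The list medians were 3.25, 7.81, -0.12, 0.28 and 0.91 in that order of genomes, beside 1.81, 7.94, 0.08, 0.01 and 0.51 over all tested features. In the alanine list only 2 genes were tested, ddl_2 of L.bacterium335, a D-alanine ligase gene, which was called higher, and alr1 of F. rodentium (-0.07 ± 0.23), which was not.

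In the list of pyruvate and phosphoenolpyruvate enzymes, all 9 tested genes of L.bacterium335 and 6 of 7 of Acetatifactor were higher at 2.5%. In Acetatifactor these included ldhA, named for lactate dehydrogenase, at 4.08 ± 0.87, and pflB_1, pyruvate formate-lyase, at 2.97 ± 0.69 (edgeR adjusted p = 0.000139 and 0.000337). The seventh, oadA, named for a subunit of oxaloacetate decarboxylase, was lower (-1.33 ± 0.41, edgeR adjusted p = 0.00408). None was called of 10 in D. muris, 5 in F. rodentium and 2 in X. muris. The list median was 2.12 in Acetatifactor and 8.73 in L.bacterium335, beside 1.81 and 7.94 over all tested features. In D. muris, F. rodentium and X. muris it was -0.15, -0.07 and -0.21. Both X. muris genes, pckA of gluconeogenesis (-0.32 ± 0.37) and the enolase gene eno (-0.10 ± 0.54), lay below the median of that genome. In the list of ferredoxin, Rnf and hydrogenase genes, 5 of 5 in L.bacterium335 and 2 of 3 in Acetatifactor were higher, the latter being rsxB_3 (3.88 ± 0.78) and rsxC (2.62 ± 0.78), both of the Rnf type of electron transport complex. The list medians in these genomes were 7.72 and 2.62, beside 7.94 and 1.81 over all tested features, and the counts in both lists are to be read against the 77.8% and 54.5% of features called higher. None was called of 6 in D. muris and 6 in F. rodentium, and X. muris had none tested.

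The features with a symbol whose levels over libraries were most like each gene were also listed, by Spearman's rho, as a description. For nifJ of X. muris they were aldA (0.72), atpD (0.65) and dnaN (0.62) over 33 libraries, and for gdhA they were aldA (0.61), scpA (0.58) and murA (0.57). For ald they were atpD (0.77), pnp (0.62) and lpxA_2 (0.62), and for ppdK rnr, aspS and uxaC (0.60 each). The median rho of the 91 candidates lay between 0.20 and 0.34. In D. muris, over 37 libraries, gdhA was most like leuA_2 (0.77), ilvB (0.74) and ilvD (0.64), genes named for branched-chain amino acid synthesis. There gdhB was most like korA_2 (0.75), mutB (0.63) and tuf (0.55). For ald of D. muris no rho exceeded 0.50 (kduI), for ppdK_1 the first was ndhB (0.55) and for ppdK_2 sglT (0.59). In F. rodentium ppdK followed ilvC (0.90), dppE_1 (0.89) and purC (0.89) over 38 libraries, against a median of 0.12 for 537 candidates. In Acetatifactor ppdK followed pgcA and pbuG (0.92 each) and glgC_1 (0.91), where the median candidate had 0.70. In L.bacterium335 it followed fba (0.80), carE (0.79) and carD (0.78), beside 0.59. All values of a genome share its libraries and their depth.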

How the data were processed

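RNA of cecal contents was sequenced in 40 libraries, 10 per diet. Per the labels' protocols, QIAseq FastSelect removed ribosomal RNA before KAPA RNA HyperPrep library preparation. The values deposited by the authors are raw counts per feature, whole numbers without normalization, in 6 tables of 1 bacterial genome each. The aligner, the counting program and the builds were not given in the sources used here. Diet groups were taken from the labels' treatment entries. Replicate numbers follow accession order and pair no libraries.

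Each of 5 genomes was fitted alone in R 4.3.3 with edgeR 4.0.16 (filterByExpr, TMM, glmQLFit, glmQLFTest) on libraries with at least 10000 counts on it, all diets sharing 1 estimate of the spread. In X. muris 5 stable RNA features were left out. P-values were adjusted by Benjamini-Hochberg over all tested features per genome and contrast. Each standard error was obtained as the fold change over the root of its F statistic. The fits were also run on simulated counts with 1 spread per genome and changes in both directions. Those counts lacked the shifts of whole genomes seen here, so they do not test the fits under such shifts. Groups with no count are given as lower bounds against 3 counts. Bacteria were compared by permutation (exact, or 100000 resamples). Alternatives were RLE or no factors, sizes over 6 tables, DESeq2 1.42.0, other filters and minimums, a depth covariate and omitted libraries.

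Members and lists were chosen with earlier results of these data known. Every row with 1 of the 6 symbols is reported, with at most 3 genes per list and genome, by smallest p at 2.5%, and the 3 features most alike. No sequences were used here. Alistipes was not fitted.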

Additional observations from a re-analysis of the deposited data

Results flagged for a closer look

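Of 47 groups of libraries examined, 7 held a library whose level stood far from its neighbours, by a limit that about 1 in 20 groups of normally distributed values would pass. How often skewed values of low counts pass it was not tested. For ald of D. muris, 2.5% replicate 1 reached 714 CPM and the next highest library 444. For gdhA of D. muris, 0% replicate 4 reached 1113 CPM against 399. For ppdK_2 of D. muris, 0.5% replicate 5 reached 6273 CPM against 4682, and 1% replicate 10 reached 7398 against 5487. For ppdK of L.bacterium335, 2.5% replicate 8 reached 646 CPM against 323. For ppdK of X. muris, 0.5% replicate 5 lay at 187 CPM below 2304, a value that rests on 1 count, and 2.5% replicate 3 reached 3992 against 3291.

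The change of ppdK between 0% and 2.5% differed between bacteria in 4 of 10 pairs by the permutation test. D. muris minus L.bacterium335 gave -7.96, F. rodentium minus L.bacterium335 -7.49, L.bacterium335 minus X. muris 6.85, and D. muris minus X. muris -1.07 on the log2(CPM + 1) scale. These values include the shifts of whole genomes, and those with L.bacterium335 rest on its lack of counts at 0%. Its ppdK passed the low-count filter only through the broccoli groups, so the pairs with it are not separate support.

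The Alistipes table, which entered no fit, also holds 3 of these genes. At 2.5% it had 71 counts of gdhA, 489 of gdhB and 910 of ppdK over 10 libraries, and at 0% it had 0, 0 and 2. Its total was 1620 counts at 0% and 161531 at 2.5%, and per 1000000 counts on that genome gdhB was 2143, 3461 and 3027 and ppdK 3000, 5825 and 5634 at 0.5, 1 and 2.5%.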

How the results depend on the processing

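The number of genes called higher at 2.5% was 5 and became 2 with RLE factors, 10 with library sizes over the 6 tables (1 lower) and 1 with depth on the genome as covariate. At 1% it was 3 and became 6 with no factors, 10 with sizes over the 6 tables and 1 with the covariate. At 0.5% it was 1 and became 2 with RLE factors, with no factors and with sizes over the 6 tables. Between 0.5% and 2.5% it was 0 and became 3 with RLE factors, 3 with no factors, 6 with sizes over the 6 tables (1 lower) and 2 with DESeq2. For the slope it was 4 and became 10 with sizes over the 6 tables (1 lower) and 0 with the covariate. Leaving out 1 library gave 1 to 2 genes at 0.5%, 2 to 4 at 1%, 2 to 5 at 2.5%, 0 to 1 between 0.5% and 2.5%, and 2 to 5 for the slope, with none lower. The pairs of bacteria that differed went from 4 to 7 with a pseudocount of 10. With RLE factors the pairs of Acetatifactor with D. muris and with F. rodentium were added. The cause was not tested, except that sizes over the 6 tables include by construction the bacterium's share of the counts. Among these alternatives, the share of all features called was counted only for sizes over the 6 tables at 2.5%. The median over all tested features moved as well. In X. muris at 2.5% it was 0.51 as reported, 0.25 with RLE factors, 1.85 with no factors and 0.20 with the covariate. These counts therefore do not describe the genes apart from their genomes.

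Values that changed sign, and were not called under either setting unless stated, are given in log2 units. With sizes over the 6 tables, at 2.5% ppdK_1 and ppdK_2 of D. muris were 1.41 and 1.33 (both called), gdhB of D. muris 0.85 and ppdK of F. rodentium -2.35 (called). At 0.5% gdhB and ppdK_2 of D. muris were 0.39 and 0.58 and ald of X. muris 0.57, at 1% gdhA of D. muris 0.48 and ppdK of F. rodentium -0.43, and between 0.5% and 2.5% gdhB and ppdK_1 of D. muris 0.46 and 0.57. Their slopes were 0.31 and 0.47 (the latter called), and that of ppdK of F. rodentium -1.07 (called). With the covariate, ppdK of F. rodentium, L.bacterium335 and X. muris and ppdK_2 of D. muris differed between 0.5% and 2.5% by 0.46, -0.012, -0.13 and -0.0077, gdhA of X. muris at 0.5% was -0.13 and the slope of ppdK_2 -0.039. With RLE factors gdhA of X. muris at 0.5% was -0.29 and the gdhA difference between D. muris and X. muris 0.062. For ppdK_1 and ppdK_2 of D. muris at 2.5%, and ppdK_2 at 0.5%, values were 0.068, 0.14 and 0.050 with no factors, 0.023, 0.095 and 0.0090 with no low-count filter, 0.015, 0.073 and 0.019 without libraries 76 to 81, and 0.023, 0.099 and 0.0090 with DESeq2. For ald of X. muris at 0.5% the value was 0.017 with no factors and 0.041 without those libraries, where ppdK of F. rodentium at 1% was -0.0199. The slope of ppdK of F. rodentium was -0.033 with a minimum of 50000 counts and -0.0345 with none, and that of ppdK_2 -0.013 with none.

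Leaving out 1 library changed the sign only of values that were not called. The ranges were -0.51 to 0.53 for ald and -0.43 to 0.40 for gdhA of X. muris at 0.5%, -0.49 to 0.51 for gdhA and -0.0271 to 0.18 for gdhB of D. muris at 1%, and -0.16 to 0.20 for ppdK of F. rodentium at 1%. They were -0.13 to 0.0375 for ppdK_1 at 2.5%, and for ppdK_2 -0.17 to 0.0137 at 0.5%, -0.0787 to 0.0697 at 2.5%, -0.0091 to 0.16 between 0.5% and 2.5%, and -0.0128 to 0.0360 for the slope. The minimum of 50000 counts was fitted for F. rodentium and L.bacterium335 alone: no 0% library of the other bacteria reaches it. No paired analysis was possible because replicate numbers follow sample order and pair nothing. Depth at 0% is a limit for ald of X. muris, with 12 counts over the fitted libraries, and likewise for ald of D. muris with 39, gdhA of X. muris with 67 and gdhA of D. muris with 70.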
